A study of Homo sapiens with 4 samples.

Results

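The S100 genes described here are S100A2, S100A3, S100A4, S100A6, S100A10, S100A11, S100A13, S100A14, S100A16 and S100P, taken by gene symbol from a table of 20322 genes, and all 10 had enough counts to be tested. RNA was sequenced from the colorectal adenocarcinoma line HT-29 in 2 groups of 2 libraries. IMP1-OE cells carried a PiggyBac vector with FLAG-tagged IMP1 and a short UTR (PB*-FLAG-IMP1-short UTR), and null cells carried the empty vector (PB*-empty). In both groups the IMP1 gene (symbol IGF2BP1) had been targeted with CRISPR/Cas9, the cells were labelled as derived from a mouse liver metastasis, and the medium held puromycin. The question was which mRNAs differ in level when IMP1, an RNA-binding protein of fetal tissues and tumours, is put back on the null background. No source used here states whether replicates were separate clones or cultures, and the p-values thus reflect a spread between libraries that may be technical.

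S100 proteins are small proteins with a pair of EF-hands, the loop that holds a calcium ion. Most work as dimers: calcium opens a cleft on the surface, and the cleft then grips a partner such as an annexin or a cytoskeletal protein. Several also leave the cell by routes other than the classical secretory pathway and can act on receptors outside it. Intestinal epithelium and colorectal cancers are known to express several of them, and S100A4 is best known for its link to metastasis. By RefSeq (GRCh38.p14), 9 of the 10 genes lie on chromosome 1, among other S100 genes, and S100P lies on chromosome 4.

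Promoter windows from RefSeq (GRCh38.p14) were found for all 10 genes. Within the 250 bases before a gene start, TATAAA, the core of the TATA box, was present on either strand in 3 of the 14 windows of these genes (1 each of S100A4, S100A13 and S100P), and in 10.7% of the 35116 windows of all genes. The 30 bases around it are given on each gene's own strand, because S100P and S100A4 are members on which the comparisons turn, with TATAAA in capitals. The windows are chr4:6693838-6693867 (plus strand) for S100P, chr1:153545820-153545849 (minus strand) for S100A4 and chr1:153627517-153627546 (minus strand) for S100A13.
S100P: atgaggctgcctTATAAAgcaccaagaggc
S100A4: gcctggctggggTATAAAtaggtcagacct
S100A13: ttccccgctgctTATAAAcctcagccctga
The motif began 28 bases before the gene start in S100P, 31 in S100A4 and 29 in S100A13. The letters GAAANNGAA, from the interferon-stimulated response element, were found on either strand in 1 of the 14 windows, of S100A14, and in 6.88% of all windows. The letters TTCNNNGAA, a STAT-binding element, were found in 1 of the 14 windows, of S100A3, and in 6.57% of all windows. These are matches of letters only, and the motifs were chosen with the values known.

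Library totals ran from 9343429 to 10594813 estimated counts. IGF2BP1 had 71 and 112 counts in IMP1-OE libraries, against 37 and 16 in null libraries, so its order follows the labels. Its difference did not pass edgeR's test (log2 fold change 1.69, SE 0.56, adjusted p of 0.453). Of all genes tested, 21.3% were likewise higher in IMP1-OE without overlap. Levels are CPM, counts divided by library size after edgeR's TMM scaling. The most abundant gene of the table was ARSI, which encodes a sulfatase. It stood at 76384 and 123447 CPM in the IMP1-OE libraries, against 184099 and 176555 CPM in the null libraries (adjusted edgeR p of 0.447). Its share of all counts was 8.01% and 12.4% in IMP1-OE, against 17.8% and 17.3% in null. Whether these reads come from ARSI mRNA was not tested. With ARSI left out, edgeR called 0 members, and log2 fold changes were -0.66 for S100P, -0.59 for S100A6 and 0.58 for S100A16. Of 14 colorectal epithelial markers 11 were tested, 2 above and 9 below 0, with a median log2 fold change of -0.10. An unadjusted edgeR p under 0.05 was reached by 1 of the 11, lower in IMP1-OE (5.84% of all genes tested). Between the null libraries 3 of the 11 differed by more than 2-fold (16.8% of all genes tested). EPCAM, a marker that differed little, stood at 1049 and 823 CPM with IMP1-OE and at 1038 and 870 CPM with null. Of the intestinal factor CDX2, 0 and 3 counts were listed in IMP1-OE, against 47 and 2 in null. Markers of other cell types were at 0 in all 4 libraries for 2 of 10 leukocyte genes (CD3D and CD3E), 1 of 10 fibroblast genes (PDGFRA), 1 of 7 endothelial genes (KDR) and 4 of 9 hepatocyte genes (ALB among them). Of the same lists 4 leukocyte, 2 fibroblast, 2 endothelial and 2 hepatocyte genes had enough counts to be tested. The leukocyte list summed to 1914 and 1760 CPM in IMP1-OE, against 2835 and 1447 CPM in null, nearly all of it from LYZ (1884 and 1742 CPM, against 2798 and 1378 CPM). Without LYZ it summed to 29.7 and 17.7 CPM in IMP1-OE, against 37.3 and 69.5 CPM in null replicates 1 and 2. CD14 was the next gene, at up to 52.3 CPM. The hepatocyte list summed to 689 and 732 CPM in IMP1-OE, against 441 and 229 CPM in null, nearly all of it from SERPINA1. The fibroblast list summed to at most 15.9 CPM and the endothelial list to at most 5.81 CPM in any library. The part of these genes in the S100 values was not tested. Null replicate 2 stood apart. Summed over 34 interferon-stimulated genes its level was 11978 CPM, against 1631 CPM in null replicate 1 and 1320 and 1680 CPM in the IMP1-OE libraries. Every S100 result below is therefore also given without each null library where that library decides it.

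S100 mRNAs made up a large pool in these cells, led by S100A6. Levels of different genes are compared as CPM per kb of effective length. S100A6, also called calcyclin, had a level of 12391 and 10713 CPM per kb in IMP1-OE libraries, against 18735 and 16169 CPM per kb in null libraries. It was the most abundant member in all 4 libraries and ranked 6 by mean CPM among the 12113 genes tested. S100A4 followed at 2662 CPM per kb (mean of IMP1-OE) and 4790 CPM per kb (mean of null), and S100P at 1665 and 2629 CPM per kb in the same groups. S100A4 and S100P changed places in null replicate 1, so their order did not hold beyond the spread between libraries. S100A11 and S100A10 came next, at 995 and 645 CPM per kb in IMP1-OE and at 1359 and 623 CPM per kb in null, and they also changed places in null replicate 1. S100A16 (204 CPM per kb in IMP1-OE, 137 in null), S100A13 (98.8 and 120) and S100A14 (61.4 and 52.0) formed a middle tier, and S100A2 (19.8 and 21.6) and S100A3 (2.58 and 1.80) were the lowest. S100A16 and S100A13, and likewise S100A14 and S100A2, changed places in null replicate 2, while S100A3 was last in every library.

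**Figure D1:**
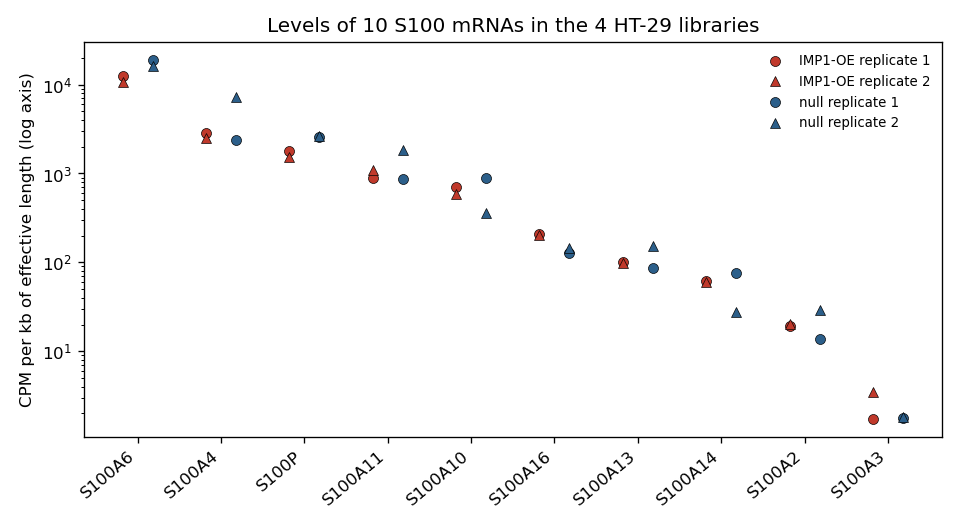
Level of each S100 mRNA in each library as CPM per kb of effective length, on a log axis, with genes ordered by their mean level; IMP1-OE libraries (red) stand left of null libraries (blue), circles are replicate 1 and triangles replicate 2. S100A6 is the highest and S100A3 the lowest in all 4 libraries, and the blue points of S100A4, S100A10 and S100A14 lie far apart.

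Summed over the 10 genes, the level was 8632 and 7675 CPM in the IMP1-OE libraries, against 11401 and 13028 CPM in the null libraries. The groups did not overlap, as for 43.2% of all single genes tested (21.9% lower in IMP1-OE). Most of the sum was S100A6 (5093 and 4403 CPM in IMP1-OE, against 7700 and 6645 CPM in null). S100A4 added 3661 CPM in null replicate 2. The sum thus follows these genes and is not a decrease of every member, since 4 members had a fold change above 0. S100A6 supplied 65.2% and 63.8% of the family's CPM per kb in IMP1-OE libraries, against 72.7% and 56.5% in null replicates 1 and 2. S100A4 supplied 14.9% and 14.8% in IMP1-OE, against 9.21% in null replicate 1 and 25.2% in null replicate 2. Both shares were nearly the same in the IMP1-OE libraries and lay between those of the null libraries. The share of S100A11 differed more, at 4.69% and 6.53% in IMP1-OE, against 3.40% and 6.44% in null. Per kb, S100A6 exceeded S100A4 by 4.38 and 4.30 times in IMP1-OE, against 7.89 times in null replicate 1 and 2.24 times in null replicate 2.

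Across IMP1-OE and null, 3 members stood apart without overlap: S100P and S100A6 were lower and S100A16 was higher in both IMP1-OE libraries. None of the 10 passed edgeR's quasi-likelihood test at an adjusted p of 0.05, where 0 of 12113 genes passed. The 3 members had an unadjusted edgeR p under 0.05, which 10.2% of all genes tested also had (5.84% lower and 4.34% higher in IMP1-OE). Groups without overlap were found for 43.2% of all genes tested (21.9% lower and 21.3% higher in IMP1-OE), so 3 of 10 members is no more than the background on that count. The fitted log2 fold change was below 0 for 6 members and above 0 for 4 (51.9% of all genes tested were below 0), with a median of -0.20, against a median of -0.02 over all genes tested. DESeq2, and the authors' deposited table, called 0 of the 10 members and 164 genes in all (1.28%).

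S100P encodes a secreted protein, first found in placenta, that binds the membrane linker ezrin and the receptor RAGE. It had 806 and 686 CPM in the IMP1-OE libraries, against 1165 and 1191 CPM in the null libraries. Both IMP1-OE libraries lay below both null libraries, and the null libraries differed by less than the IMP1-OE libraries did. The level averaged 746 ± 85.0 CPM with IMP1-OE and 1178 ± 18.1 CPM with null (SD, n = 2 each), a 1.58-fold lower level in IMP1-OE. On the log2 scale the fitted fold change was -0.66 (SE 0.17), at an unadjusted edgeR p of 0.00794 and an adjusted p of 0.435, the smallest p of the 10 and rank 214 of 12113. The authors' deposited table gives S100P -0.53, where DESeq2 here gave -0.65, both with an adjusted p of 0.0639. With a null library left out, edgeR's log2 fold change was -0.67 (without replicate 1) and -0.64 (without replicate 2), so neither null library decided it.

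S100A6 encodes calcyclin, which binds annexins and the ubiquitin-ligase adaptor CACYBP. It had 5093 and 4403 CPM in the IMP1-OE libraries, against 7700 and 6645 CPM in the null libraries. The groups did not overlap, and the gap between them was wider than the distance between the libraries of either group. The mean was 4748 ± 488 CPM with IMP1-OE and 7173 ± 746 CPM with null (SD, n = 2 each), 1.51-fold lower in IMP1-OE. On the log2 scale the fitted fold change was -0.60 (SE 0.17), at an unadjusted edgeR p of 0.0142 and an adjusted p of 0.446. The authors' deposited table gives -0.44, where DESeq2 here gave -0.59, both with an adjusted p of 0.146. Without null replicate 1 the edgeR log2 fold change was -0.49 and without null replicate 2 it was -0.70.

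S100A16, whose protein binds calcium weakly and is found in many epithelia, was the member on the higher side. It had 193 and 187 CPM in the IMP1-OE libraries, against 119 and 136 CPM in the null libraries. The groups did not overlap, with means of 190.3 ± 4.39 CPM with IMP1-OE and 128 ± 11.7 CPM with null (SD, n = 2 each), 1.49-fold higher in IMP1-OE. On the log2 scale the fitted fold change was 0.58 (SE 0.17), at an unadjusted edgeR p of 0.0147 and an adjusted p of 0.446. The authors' deposited table gives 0.42, where DESeq2 here gave 0.58, both with an adjusted p of 0.188. Leaving out null replicate 1 gave 0.49, and leaving out null replicate 2 gave 0.67.

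DESeq2 without null replicate 2, a setting added after the data were seen, called these 3 members (2.11% of genes were called in that fit). With either IMP1-OE library left out, edgeR gave 0 of the 10 members an unadjusted p under 0.05.

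**Figure D2:**
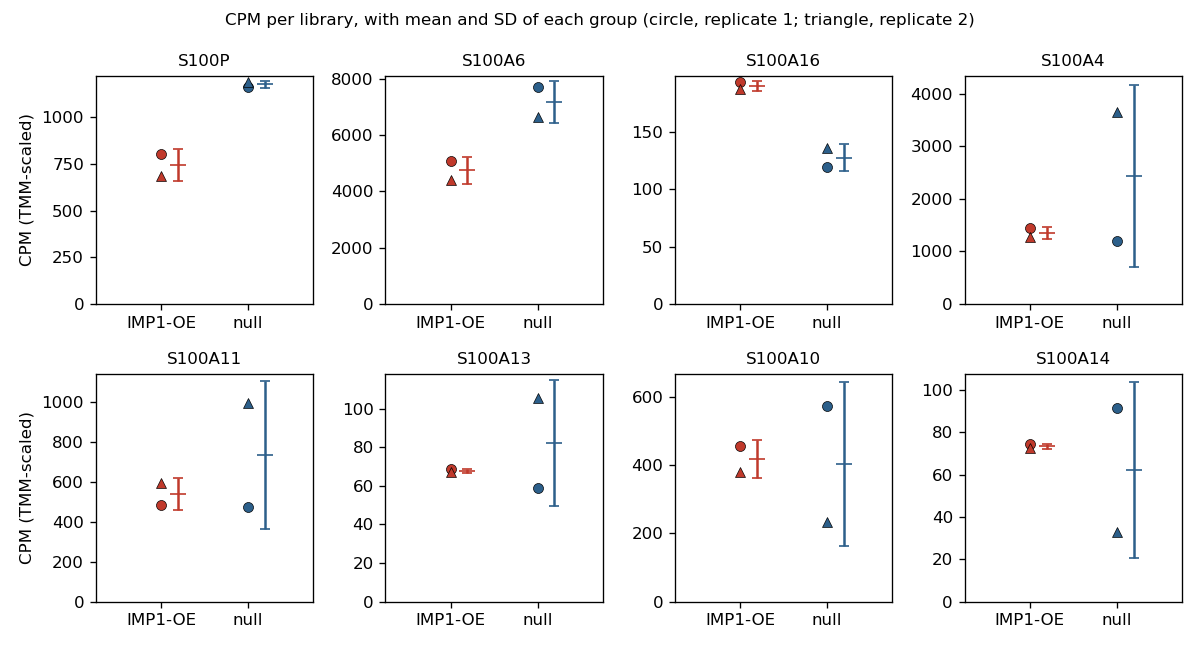
CPM of 8 S100 mRNAs per library, IMP1-OE (red) left of null (blue) in each panel, with the mean and SD of the 2 libraries of a group beside the points; each vertical axis starts at 0 and has its own scale. S100P, S100A6 and S100A16 have groups that do not overlap, and in the other 5 panels the null libraries lie on either side of the IMP1-OE libraries.

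For 6 other members the null libraries lay on either side of the IMP1-OE libraries. The share of all genes with this order was not computed, so it is not read as a trait of these genes. The null libraries were the wider pair for 63.2% of all genes tested and for 80% of the members. S100A4, a binder of non-muscle myosin linked to cell motility and metastasis, had 1438 and 1266 CPM in the IMP1-OE libraries, against 1206 CPM (null replicate 1) and 3661 CPM (null replicate 2). Null replicate 2 was thus 3.04 times null replicate 1, and both IMP1-OE libraries lay just above null replicate 1. The log2 fold change was -0.85 (SE 0.49, unadjusted edgeR p of 0.132, adjusted p of 0.596), with means of 1352 ± 122 CPM with IMP1-OE and 2433 ± 1736 CPM with null (SD, n = 2 each). It was -1.44 without null replicate 1 (adjusted p = 0.00492) and 0.17 without null replicate 2 (adjusted p = 0.637), so the direction turned with the null library kept.

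S100A11, which binds annexin A1 and takes part in membrane repair and growth control, had 482 and 592 CPM in the IMP1-OE libraries, against 473 CPM (null replicate 1) and 995 CPM (null replicate 2). S100A13, a helper in the release of FGF1 and interleukin-1 alpha, had 68.5 and 67.2 CPM in the IMP1-OE libraries, against 59.1 and 105 CPM in the same null libraries. S100A2, known as a p53-regulated gene of epithelia, had 18.6 and 19.2 CPM in the IMP1-OE libraries, against 13.01 and 28.1 CPM in those null libraries. For all 3, as for S100A4, null replicate 2 was the highest and null replicate 1 the lowest library, with both IMP1-OE libraries between them in every case. The fitted log2 fold changes were -0.45 (SE 0.36) for S100A11, -0.28 (SE 0.29) for S100A13 and -0.12 (SE 0.39) for S100A2, with adjusted edgeR p of 0.703, 0.788 and 0.943. Each was above 0 without null replicate 2, at 0.18, 0.20 and 0.54. Without null replicate 1 they were -0.89, -0.63 and -0.57.

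S100A10 and S100A14 had the opposite pattern. S100A10, the calcium-insensitive member that pairs with annexin A2 at the plasma membrane, had 457 and 379 CPM in the IMP1-OE libraries, against 574 CPM (null replicate 1) and 233 CPM (null replicate 2). S100A14, an epithelial member with an altered EF-hand, had 74.3 and 72.4 CPM in the IMP1-OE libraries, against 91.5 and 32.7 CPM in the same null libraries. Null replicate 2 was the lowest library and null replicate 1 the highest for both, by 2.46 times for S100A10 and 2.79 times for S100A14. The log2 fold changes over all 4 libraries were 0.05 (SE 0.41) for S100A10 and 0.24 (SE 0.45) for S100A14, with adjusted edgeR p of 0.980 and 0.889. Without null replicate 1 they were 0.84 (adjusted p = 0.0456) and 1.16 (adjusted p = 0.0228), and without null replicate 2 they were -0.46 (adjusted p = 0.292) and -0.32 (adjusted p = 0.452). With null replicate 1 left out, edgeR thus called 4 members (S100A4 and S100A11 lower, S100A10 and S100A14 higher in IMP1-OE), beside 6.46% of all genes. DESeq2 without that library, also added after the data were seen, called S100A4, S100A6, S100A11 and S100P lower and S100A10 and S100A14 higher, beside 8.4% of its genes. With null replicate 2 left out, edgeR called 0 members and 0.396% of all genes.

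S100A3, a zinc-binding member known from hair, was the lowest member, with 13 and 26 counts in IMP1-OE, against 13 and 12 counts in null. Its CPM were 1.24 and 2.47 in IMP1-OE and 1.27 and 1.31 in null, where 3 counts, the upper limit that a count of 0 allows, correspond to 0.285 to 0.328 CPM on this TMM-scaled measure. The groups overlapped, the spread lay between the IMP1-OE libraries, and the difference did not pass the test (log2 fold change 0.52, SE 0.80, adjusted edgeR p of 0.864).

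**Figure D3:**
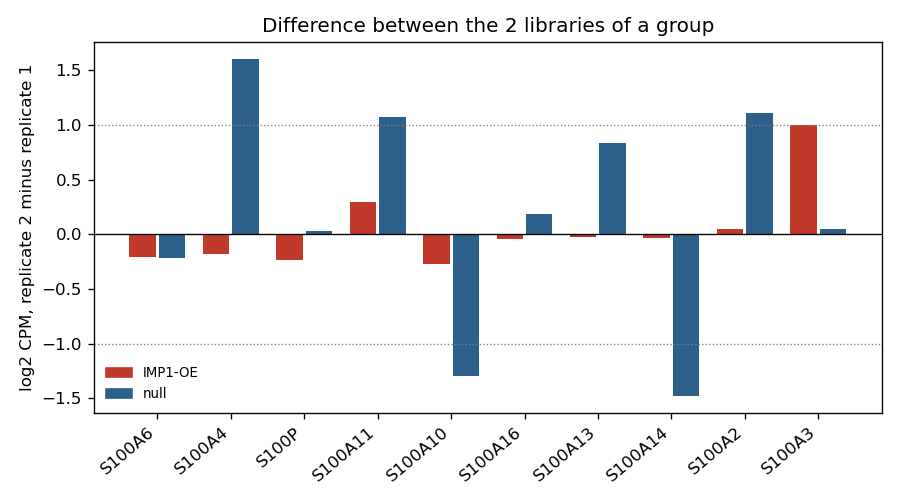
Difference in log2 CPM between replicate 2 and replicate 1 for each S100 mRNA, with the IMP1-OE libraries (red) left of the null libraries (blue) and dotted lines at a 2-fold difference. The null bars of S100A2, S100A4, S100A10, S100A11 and S100A14 pass a dotted line, and no red bar does, although that of S100A3 ends at the line.

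Between the null libraries, 5 of the 10 members differed by more than 2-fold, against 16.8% of all genes tested, and the median size of the difference was 0.95 on the log2 scale, against 0.39 over all genes tested. Among tested genes above 10 CPM, which include every member except S100A3, the median was 0.32 and 9.14% differed by more than 2-fold. Between the IMP1-OE libraries 0 members differed by more than 2-fold (8.44% of all genes did), with a median of 0.20 for the members against 0.24 over all genes. The members that differed between the null libraries did not move one way, since S100A2, S100A4 and S100A11 were higher and S100A10 and S100A14 lower in null replicate 2. The interferon-stimulated genes stood higher in that library for 33 of the 34 tested, and their part in the S100 values was not tested. The 14 epithelial markers summed to 26561 and 27326 CPM in the IMP1-OE libraries, against 28855 CPM (null replicate 1) and 21043 CPM (null replicate 2). That sum was led by 2 keratin genes. KRT8 had 12127 and 12181 CPM in IMP1-OE, against 12826 and 9484 CPM in null replicates 1 and 2, and KRT18 up to 10632 CPM. The part of that difference in the S100 values was not tested either.

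**Figure D4:**
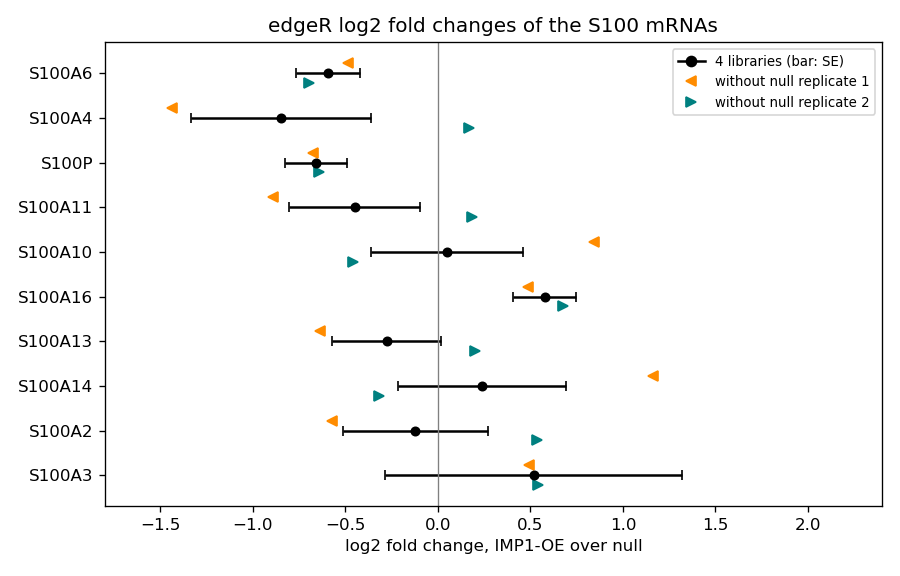
Fitted edgeR log2 fold change of each S100 mRNA, IMP1-OE over null, from all 4 libraries (black, bar of 1 SE) and with either null library left out (triangles). Both triangles lie on the same side of 0 for S100A6, S100P, S100A16 and S100A3, and on opposite sides for the other 6 genes.

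Members could be grouped by how alike their values were over the 4 libraries, taken as the root mean square difference of log2 CPM after centring each gene. S100P and S100A6 lay 0.0931 apart, S100A2 and S100A13 0.142, S100A10 and S100A14 0.159, and S100A11 and S100A13 0.160. S100A4 and S100A14 were the farthest apart, at 1.21. Of all tested genes with counts in every library, the nearest to S100P were IGSF8, a tetraspanin partner, at 0.0135, CARS1, a cysteinyl-tRNA synthetase, at 0.0189, and PALLD, an actin cross-linker, at 0.0214. Of 11862 genes compared over the 4 libraries, 95 lay within 0.1 of S100P, S100A6 among them, and the median distance was 0.448. A profile that close to S100P is thus not particular to S100A6.

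Genes that are neighbours on chromosome 1 could differ between the null libraries. By RefSeq order, S100A16 and S100A14 are adjacent S100 genes. Their log2 fold changes of 0.58 (SE 0.17) and 0.24 (SE 0.45) are not separated by these errors. Null replicate 2 was 1.14 times null replicate 1 for S100A16, while null replicate 1 was 2.79 times null replicate 2 for S100A14. S100A10 and S100A11 are the first members in that order, and they differed in opposite directions between the null libraries. The annotated interval of S100A4 overlaps that of S100A5, which is on the same strand. S100A13 overlaps CHTOP and S100A1, and S100A1 is on the opposite strand. S100A6 overlaps the locus LOC124904423, and S100A3 and S100A4 overlap LOC101928034. These overlaps are of whole annotated intervals, and no source used here states whether counting used strand. Whether the transcripts share sequence, and any effect on the counts of these genes, S100A6 included, was not tested.

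Of the 11 other S100 genes in the table, 7 were listed at 0 in all 4 libraries, including S100A9, S100A12 and S100B. S100A8, which pairs with S100A9 as calprotectin in neutrophils, had 8 counts in null replicate 2 and 0 in the other 3 libraries. S100A5, the only one of the 11 to be tested, had 11 and 23 counts in IMP1-OE libraries, against 56 and 91 counts in null libraries. Both IMP1-OE values lay below both null values, at a log2 fold change of -2.25 (SE 0.63), an unadjusted edgeR p of 0.0122 and an adjusted p of 0.435, and its overlap with S100A4 applies here. S100A1 had 1 and 7 counts in IMP1-OE, against 19 and 5 in null.

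Genes for proteins that S100 proteins bind numbered 24, of which 18 were tested, 8 above and 10 below 0, with a median log2 fold change of -0.08. An adjusted p of 0.05 was passed by 0 of the 18 in edgeR and in DESeq2, and an unadjusted edgeR p under 0.05 was reached by 2, both lower in IMP1-OE (10.2% of all genes tested reached it, 5.84% lower), so the list's share was near the background. S100PBP, whose protein binds S100P, had 9.04 and 6.37 CPM in the IMP1-OE libraries, against 11.8 and 20.6 CPM in the null libraries (log2 fold change -1.07, unadjusted edgeR p of 0.0392, adjusted p of 0.474). ERBB2, a receptor tyrosine kinase reported to bind S100A14, had 116 and 102 CPM in the IMP1-OE libraries, against 135 and 183 CPM in the null libraries (log2 fold change -0.54, adjusted edgeR p of 0.484). BSG, the gene of basigin, a surface glycoprotein, had 1533 and 1291 CPM in IMP1-OE, against 1159 and 959 CPM in null, and ANXA5, an annexin gene, 631 and 633 CPM in IMP1-OE, against 543 and 326 CPM in null. TRPV6, a calcium channel brought to the membrane by S100A10 and annexin A2, had 0.476 and 1.05 CPM in the IMP1-OE libraries, against 1.86 and 3.17 CPM in the null libraries. BSG, ANXA5 and TRPV6 had adjusted edgeR p of 0.511, 0.536 and 0.546.

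Genes of other EF-hand proteins, 38 listed and 34 tested, split into 16 above and 18 below 0 with a median log2 fold change of -0.05. In edgeR 0 of the 34 passed the adjusted threshold and 4 reached an unadjusted p under 0.05, all lower in IMP1-OE (10.2% of all genes tested, 5.84% lower), and DESeq2 called 2 (1.28% of all genes). CALML4, a calmodulin-like protein of the brush border, had 27.2 and 22.2 CPM in the IMP1-OE libraries, against 58.6 and 49.7 CPM in the null libraries (log2 fold change -1.13, SE 0.22, adjusted edgeR p of 0.408, DESeq2 adjusted p of 0.0228). RCN1, a calcium-binding protein of the endoplasmic reticulum, had 47.8 and 48.1 CPM in the IMP1-OE libraries, against 81.0 and 114 CPM in the null libraries (log2 fold change -1.02, SE 0.22, adjusted edgeR p of 0.433, DESeq2 adjusted p of 0.0269). NUCB1, a Golgi calcium binder, had a log2 fold change of -0.74, CALM2, one of the calmodulin genes, -0.40, and EFHD2, an actin-binding EF-hand protein, -0.36, with adjusted edgeR p from 0.480 to 0.565.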

How the data were processed

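RNA of 4 HT-29 samples was fragmented and pieces of 18 to 50 nt were kept, per the labels' protocols. The authors deposited estimated counts, 1 transcript for each of 20322 genes, in kallisto's output columns per the file headers. Kallisto 0.46.2 and DESeq are named in the submitters' processing notes. The sources used here do not give the genome build, strand setting or use of the molecular identifiers, and floors cover counting error only. The values were whole as deposited. The authors' deposited table holds log2 fold changes and p-values, positive values being higher in IMP1-OE, and does not state a shrinkage. For every member its adjusted p equals that of DESeq2 here, but its log2 fold change is smaller in size. For S100A4 it is -0.03, where DESeq2 here gave -0.84. Its fold changes are thus on another scale and are not separate estimates to set beside those of edgeR. The table has 2 further sample names that match no label, not analysed here.

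All genes went into edgeR 4.0.16 under R 4.3.3, with TMM scaling, default low-count filter (12113 genes), quasi-likelihood F test, no covariate, Benjamini-Hochberg adjustment over all genes, threshold 0.05, on steps tested on simulated data. SE is the log2 fold change over the square root of F. An exact two-sided permutation test of 2 against 2 cannot give a p under 0.333. The alternatives were DESeq2 1.42.0, voom in limma 3.58.1, changed scalings or filters, a replicate block, and each library left out. The libraries of a group differed beyond counting noise (chi-square per degree of freedom 19.2 for IMP1-OE and 55.3 for null). Same-numbered libraries' deviations correlated at 0.12 over genes, too few pairs to show pairing. Named genes are all members, other S100 genes with 10 or more counts, the 5 smallest p of each partner list and the 3 profiles nearest to S100P; marker genes, ARSI, ANXA2 and S100A8 were named after their values were seen. Members and lists were chosen with earlier results of these data known.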

Additional observations from a re-analysis of the deposited data

How the results depend on the processing

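S100P, S100A6 and S100A16 kept their direction under all 18 alternatives, with log2 fold changes of -0.78 to -0.53, -0.71 to -0.47 and 0.49 to 0.67. Over all genes edgeR called 0, DESeq2 164, limma-voom 1, the edgeR likelihood ratio test 155, edgeR with no low-count filter 22 and edgeR with the replicate number as a block 15, and with a library left out edgeR called 0 to 783. DESeq2, in settings added after the data were seen, called 27 without IMP1-OE replicate 1, 33 without IMP1-OE replicate 2, 1025 without null replicate 1 and 263 without null replicate 2. The block called 0 members and left 3 at an unadjusted p under 0.05, as without it. With a library left out, 0 to 4 members were called by edgeR and 0 to 6 by DESeq2, and 0 to 8 had an unadjusted p under 0.05 by either tool. Of the members' values under the alternatives, 17 of 180 changed direction, and the cause was not tested. S100A2 was at 0.0042 in limma-voom. Without null replicate 2 edgeR gave S100A2 0.54, S100A4 0.17, S100A10 -0.46, S100A11 0.18, S100A13 0.20 and S100A14 -0.32, and DESeq2 gave 0.54, 0.16, -0.46, 0.18, 0.20 and -0.32 for the same genes. S100A10 was at -0.09 (edgeR) and -0.10 (DESeq2) without IMP1-OE replicate 1, and S100A3 at -0.0495 (edgeR) and -0.0501 (DESeq2) without IMP1-OE replicate 2. With a library left out, edgeR values ran from -0.57 to 0.54 (S100A2), -0.0495 to 0.93 (S100A3), -1.44 to 0.17 (S100A4), -0.46 to 0.84 (S100A10), -0.89 to 0.18 (S100A11), -0.63 to 0.20 (S100A13) and -0.32 to 1.16 (S100A14). S100A3 had the fewest counts of the members, 12 to 26 a library.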

Other observations

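ANXA2, the gene of the annexin that forms a complex with S100A10, was looked at after its values were seen. It had 3038 and 2957 CPM in the IMP1-OE libraries, against 3629 CPM (null replicate 1) and 2217 CPM (null replicate 2), so its null libraries lay on either side of the IMP1-OE libraries in the same order as those of S100A10. The markers LYZ and VIL1 had that order too (VIL1 148 and 150 CPM in IMP1-OE, against 212 and 107 CPM in null). The order is thus not particular to ANXA2 and S100A10, and its share of all genes was not computed. For ANXA2 the log2 fold change was 0.04 (SE 0.25, adjusted edgeR p of 0.974).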
